A study of Arabidopsis thaliana with 4 samples.

Results

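The comparison set a transgenic Arabidopsis thaliana line, GR-REV, against wild type Landsberg erecta (Ler) seedlings, with the mock and dexamethasone arrays of each genotype pooled. All 4 arrays of the study entered it, 2 GR-REV and 2 wild type. The title of the GR-REV dexamethasone array places the transgenic line in the Ler background. All seedlings were grown in liquid culture for 10 days, with 100 seeds per flask. GR-REV carries the transcription factor REVOLUTA (REV) with the glucocorticoid receptor domain (GR) at its amino terminus, mutated so that microRNAs no longer match it, under the viral 35S promoter. For each genotype 1 flask received 50 µg/ml dexamethasone in 0.1% ethanol and 1 flask received the ethanol alone, for 1 h, and RNA came from 100 mg of tissue. How many independent transgenic lines the flasks stood for was not stated in the sources used here. The titles and the source names give the 2 GR-REV arrays opposite treatments, and the pooled comparison does not use those labels. Where arrays are paired by treatment, the titles are followed.

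REVOLUTA is a class III homeodomain leucine zipper (HD-ZIP III) protein that helps to set the upper side of leaves, the shoot meristem and the vasculature. A GR fusion is held in the cytoplasm until a steroid such as dexamethasone binds it, after which it can enter the nucleus. A comparison of genotypes at both treatments therefore takes in the transgene, anything else in which the line and its wild type differ, and the growth of separate flasks. Transcript of the transgene was not analysed here, since the annotation table used pairs no probe set with REV. The arrays were Affymetrix ATH1 arrays, whose probes were designed from the Columbia reference accession, so a transcript's amount and its match to the probes cannot be told apart.

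Genotype differences were found for a small share of the probe sets, more often higher than lower in GR-REV. With limma's moderated test and Benjamini-Hochberg adjustment over 14034 probe sets, 180 were called higher in GR-REV, a background of 1.28%, and 69 were called lower, a background of 0.492%. A call means an adjusted p under 0.05. One gene was listed for 98 of the probe sets called higher and 42 of those called lower. The median difference among calls was 1.83 on the log2 scale for those higher and -1.87 for those lower, with standard errors between 0.15 and 0.46. These counts moved with the settings, to 568 higher and 429 lower with the titles' treatment as a term, 302 and 125 with division by the median, and 15 and 15 with no filter. All 249 calls of the test were at least 2-fold, and 4-fold was reached by 72 of those higher and 28 of those lower.

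Signals below 91.4, the 40th percentile of all values, were set to that floor, and a fold against a genotype at the floor on both arrays is a bound. Such bounds applied to 42 of the calls higher and 16 of the calls lower. In these calls the floor removed the spread within the genotype at the floor, so standard errors and adjusted p do not include it. Of probe sets, 12252 exceeded the floor on all 4 arrays, and 120 of these were called higher (0.979%) and 48 lower (0.392%). A further 319 probe sets exceeded 2-fold upwards and 326 downwards without passing the test. Across all probe sets tested the middle 90% of differences lay between -0.79 and 0.84, with a median of -0.02.

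**Figure D1:**
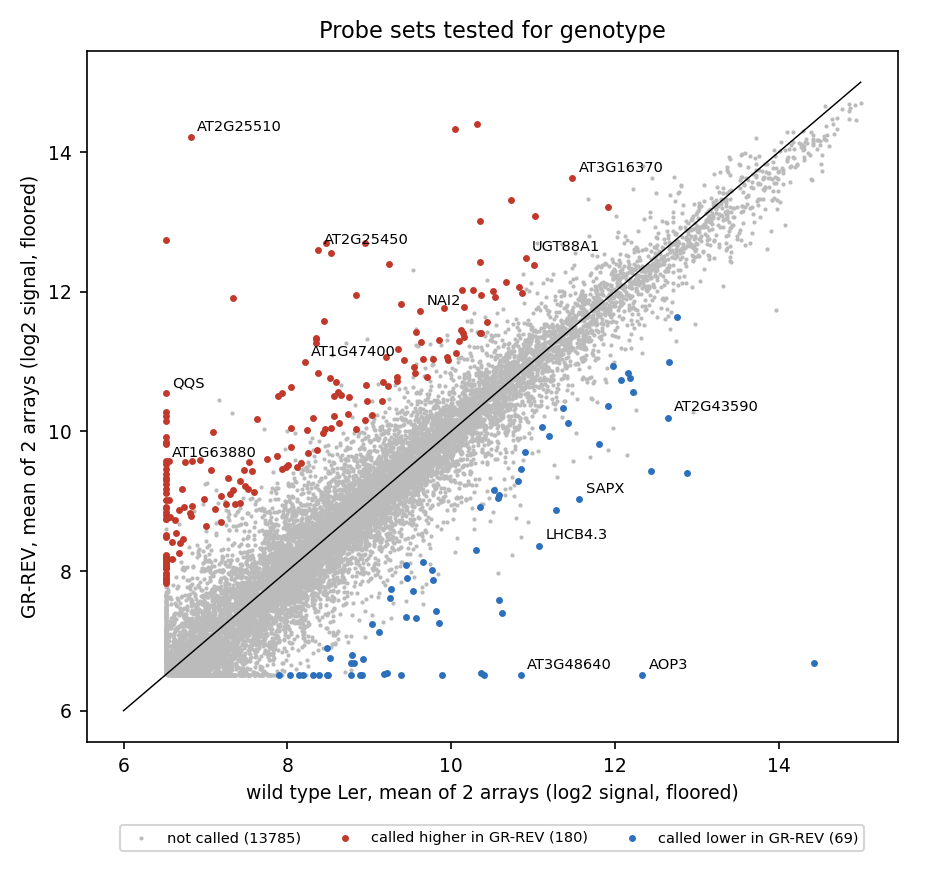
Mean log2 signal of the 2 GR-REV arrays (vertical) against that of the 2 wild type arrays (horizontal) for 14034 probe sets, with 180 called higher in red and 69 called lower in blue. The diagonal marks equal levels, and the points in line at the left and lower edges are at the floor of 91.4 on both arrays of one genotype.

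In this test the spread comes from the mock flask and the dexamethasone flask of each genotype, and any response to the treatment is part of it. The SD of the log2 difference between those flasks over the 12252 probe sets was 0.43 in wild type and 0.43 in GR-REV. Between genotypes it was 0.57 in the mock pair and 0.57 in the dexamethasone pair. A fit without the wild type mock array called 97 higher and 17 lower, and 93 of the 249 calls were among them. A fit without the wild type dexamethasone array called 61 and 20, with 71 of the 249 among them. Leaving out the array titled GR-REV mock gave 198 and 170 calls, with 174 of the 249, and leaving out the one titled GR-REV dexamethasone gave 178 and 125, with 166. An exact permutation of 2 against 2 arrays cannot give a two-sided p below 0.333 for a single gene.

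Enzymes of aliphatic glucosinolates, the sulfur compounds of the mustard family, held large differences in both directions. AOP3, which makes hydroxyalkyl glucosinolates from their methylsulfinyl precursors, had signals of 6068 and 4400 in the wild type mock and dexamethasone arrays and 30.4 and 5.50 in the GR-REV arrays. Its level was at least 56.6-fold lower in GR-REV (log2 difference -5.82 ± 0.22, SE, 2 against 2 arrays; limma adjusted p = 0.00112). AT2G25450 encodes a 2-oxoglutarate-dependent dioxygenase that hydroxylates butenyl glucosinolate, and it was 18.7-fold higher (4.22 ± 0.26, adjusted p = 0.00548). Its GR-REV signals were 7882 and 4874, against 308 and 357 in wild type. The other 3 members measured did not pass, with BCAT4, the aminotransferase of the first chain-elongation step, at -0.36, UGT74B1, a glucosyltransferase of the core pathway, at -0.36 and AOP1 at -0.26. Only 5 of the 28 listed loci of this pathway could be matched to a probe set.

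AT2G25510, the gene measured next to AT2G25450 in locus order, had the highest difference of any probe set with 1 gene. It falls outside the rule for named genes and was chosen after its values were seen. Its signals were 140 and 68.0 in wild type, against 18578 and 19290 in GR-REV, a difference of 7.39 ± 0.24 (adjusted p = 0.000743, limma). Both GR-REV arrays lay far above both wild type arrays, and the dimmer wild type array was under the floor.

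Several genes were near or below the floor in wild type and bright in GR-REV. QQS, a gene without relatives outside Arabidopsis that affects leaf starch, had signals of 38.3 and 20.4 in wild type, against 1717 and 1297 in GR-REV, at least 16.3-fold higher (4.03 ± 0.24, adjusted p = 0.00472). AT5G45500 had 13.1 and 9.46 against 1277 and 1201, at least 13.6-fold higher. Its neighbour AT5G45510, a leucine-rich repeat gene, had 397 and 267 against 2680 and 2504. The AT5G45510 signal was above the floor on all arrays and 7.96-fold higher in GR-REV (2.99 ± 0.24, adjusted p = 0.00972).

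AT3G19515 had wild type signals of 52.9 and 38.9 and GR-REV signals of 897 and 1439, at least 12.4-fold higher. AT2G01090, the hinge protein of mitochondrial complex III, went from 55.4 and 34.6 to 924 and 1018, at least 10.6-fold. AT4G20480 went from 64.8 and 43.9 to 921 and 912, at least 10-fold. The leucine-rich repeat gene AT3G43740 had 35.1 and 2.58 against 709 and 821, at least 8.35-fold higher. In each of these genes both GR-REV signals exceeded both wild type signals by several fold, and adjusted p in limma was between 0.00562 and 0.0104.

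Among the called probe sets, fewer were at the floor throughout GR-REV than throughout wild type, 16 against 42. Among all 14034 tested the order was reversed, with 337 above the floor in wild type alone and 202 in GR-REV alone. AT3G48640 had signals of 1846 and 1841 in wild type, against 42.4 and 78.8 in GR-REV, a fall of at least 20.2-fold (-4.33 ± 0.20, adjusted p = 0.00196). AT5G44570 had 647 and 1386 in wild type, against 43.4 and 18.1 in GR-REV, a fall of at least 10.4-fold. AT1G58025 had 808 and 558 against 22.4 and 6.73, at least 7.35-fold lower. These signals were at background in GR-REV at both treatments. AT4G19240 was at least 5.20-fold lower, with 551 and 410 in wild type. AT5G24240, a gene of the phosphatidylinositol 4-kinase family, was at least 4.81-fold lower, with signals of 552 and 350 in wild type, against 4.28 and 2.44 in GR-REV.

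The genes called higher and measured on all arrays are given next, with the highest differences by the rule for named genes. AT2G33220, a GRIM-19-type subunit of mitochondrial complex I, had signals of 328 and 337 in wild type, against 1884 and 1763 in GR-REV (2.45 ± 0.17, adjusted p = 0.00717). AT4G02450, a p23-type co-chaperone of HSP90, had 296 and 204 against 1309 and 1723 (2.61 ± 0.27, adjusted p = 0.0199). AT2G21860, a relative of violaxanthin de-epoxidase, had 208 and 267 against 1546 and 1358 (2.62 ± 0.22, adjusted p = 0.0111). In each of these 3 genes both GR-REV signals were above both wild type signals by at least 4.42-fold within a treatment. SUFE2, an activator of sulfur transfer for iron-sulfur clusters in plastids, was 4.02-fold higher, with 303 and 230 against 877 and 1287.

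AT3G16370, a GDSL-type lipase, rose from 2159 and 3766 to 10473 and 15309, the brightest signals among these genes. AT3G18280, a lipid-transfer type protein, rose from 712 and 630 to 4655 and 2841. PIP, a proline iminopeptidase that removes amino-terminal proline from peptides, rose from 346 and 387 to 1618 and 1859. The differences were 2.15 ± 0.33, 2.44 ± 0.27 and 2.24 ± 0.18 on the log2 scale. AT3G16370 and AT3G18280 lie in a stretch of chromosome 3 given below, as does AT3G19515. AT5G66060, a prolyl 4-hydroxylase, was 4.12-fold higher and AT4G15260, a glycosyltransferase gene, 4.28-fold higher. AT5G24570 and AT5G44580, whose roles are not given here, were 8.77-fold and 8.93-fold higher. AT5G44580 had 862 and 426 in wild type, against 5296 and 5533 in GR-REV.

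The genes called lower and measured on all arrays follow, chosen by the same rule. LHCB4.3, a minor antenna protein of photosystem II, had signals of 2031 and 2282 in wild type, against 381 and 285 in GR-REV (-2.71 ± 0.21, adjusted p = 0.00963). SAPX, the stromal ascorbate peroxidase that removes hydrogen peroxide in plastids, had 2767 and 3314 against 565 and 484 (-2.53 ± 0.18, adjusted p = 0.00807). AT1G13470 was 8.02-fold lower, with 1714 and 1379 against 205 and 180. These 3 genes were lower in GR-REV by at least 4.90-fold at either treatment.

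AT2G43590, a chitinase, fell from 7493 and 5495 to 1510 and 911. The glycine-rich protein gene AT5G46730 fell from 1021 and 797 to 211 and 140. AT4G11000, an ankyrin repeat gene, fell from 873 and 659 to 122 and 211. All 3 were at least 4.73-fold lower by the means of both treatments. The methyltransferase genes AT2G32160 and AT2G41380 were 4.31-fold and 3.95-fold lower. BGLU15, a beta-glucosidase that acts on flavonol glycosides, was lower by 1.91 ± 0.25 on the log2 scale, and CML38, a calmodulin-like calcium sensor, had 405 and 318 against 119 and 119. AT4G19830, an FKBP-type peptidyl-prolyl isomerase, had 522 and 524 against 168 and 136. AT1G68650, AT1G19960, AT1G12330 and AT1G65490 completed the 15 lowest, between 3.13-fold and 4.29-fold lower.

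**Figure D2:**
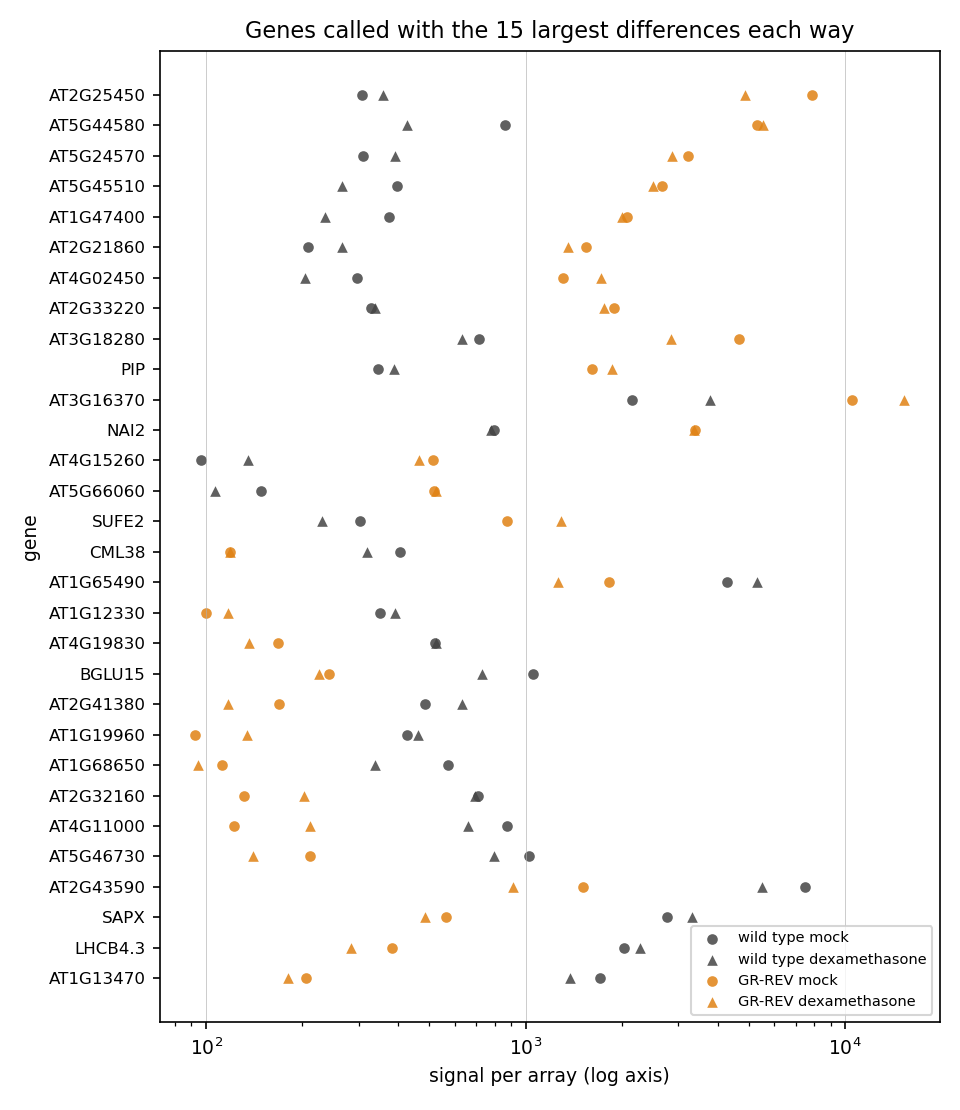
Signal on each of the 4 arrays (horizontal, log axis) for the 15 genes with the highest and the 15 with the lowest difference among calls above the floor on all arrays. Grey marks are wild type and orange marks GR-REV, circles mock and triangles dexamethasone by the titles. The genotypes do not overlap in any of the 30 genes, which their choice as the largest calls favours. Of all probe sets above the floor on every array, both GR-REV signals lay below both wild type signals in 22.9% and above in 22.8%.

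Disease resistance genes of the nucleotide-binding leucine-rich repeat (NLR) class, including genes with only a TIR domain, were called higher and none was called lower. These intracellular receptors detect pathogen proteins, and their sequences vary widely between accessions. Of 182 listed loci, 114 were matched, and 66 of their probe sets were at the floor on 3 or 4 arrays. Of the 49 tested, 8 were called higher (16.3%, against 1.28% of all probe sets tested), and for 5 of the 8 both wild type signals were at the floor. The filter was passed only through GR-REV by 10 of the 49 and only through wild type by 4, against 202 and 337 of all 14034. The 16.3% therefore includes members admitted by the genotype in which they were high. Among the 22 above the floor on all arrays, 2 were called higher, against 0.979% of such probe sets. The list was drawn up after the files had been seen, and its median, 0.20, was close to that of all probe sets. That median lay between -0.17 and 0.75 over the alternatives, so the list had no settled direction as a whole. At an unadjusted p under 0.05, 14 of the 49 were higher and 7 lower, where 8.41% and 7.95% of all probe sets tested were.

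AT1G63880 had wild type signals of 34 and 17.1 and GR-REV signals of 951 and 581, at least 8.13-fold higher (3.02 ± 0.30, adjusted p = 0.0188). CSA1, a TIR-NLR receptor known from shade and immune responses, had 62.9 and 13.3 against 441 and 478, at least 5.03-fold higher (2.33 ± 0.22, adjusted p = 0.0152). AT4G19500 was at least 5.31-fold and AT1G57630 at least 5.22-fold higher. All 4 were at background in wild type at both treatments. AT3G44630 was measured on all arrays, with 198 and 149 against 673 and 576 (1.86 ± 0.25, adjusted p = 0.0356). AT2G14080 and AT1G69550 were higher by 1.82 and 1.38 on the log2 scale, and AT5G45510 was described above.

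The other 41 members did not pass. AT4G09420 had signals of 36.3 and 48.5 in wild type, against 577 and 262 in GR-REV, with an adjusted p of 0.0767. AT1G57650 had 218 and 369 in wild type, against 4.14 and 1.72 in GR-REV, also short of the threshold at 0.0734. LOV1, the NLR that confers sensitivity to the fungal toxin victorin, was at -1.19 (adjusted p = 0.0561). By the size rule over all matched probe sets, 9 reached 2-fold upwards in both treatment pairs (7.83%, against 1.48% of all probe sets) and 3 were lower by that much (2.61%, against 0.958%). The number of NLR calls fell to 4 without the wild type mock array, 1 without the wild type dexamethasone array, 3 without either GR-REV array and 2 with the floor at the 60th percentile.

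Genes of the plastid genome, which encode photosystem, NDH, ATP synthase, RNA polymerase and ribosome subunits, were mostly lower in GR-REV by small amounts, and few passed the test. All 67 tested were above the floor on every array, 61 of them had a difference below 0, and the median was -0.48, against -0.02 for all probe sets. The median was -0.42 in the mock pair and -0.56 in the dexamethasone pair. Under the alternatives it lay between -0.54 and -0.38. Of all probe sets tested, 52.9% had a difference below 0. For 48 of the 67 plastid genes (71.6%) both GR-REV signals lay below both wild type signals, against 22.9% of all those measured on every array. In 1 gene, ccsA, both lay above, against 22.8%.

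Of these 67 genes 2 were called lower. Among all probe sets above the floor on every array 0.392% were called lower, and among all tested 0.492%. ndhE, a subunit of the chloroplast NDH complex, had signals of 2842 and 2644 in wild type, against 1202 and 1038 in GR-REV (-1.30 ± 0.17, adjusted p = 0.0303). psbT, a small subunit of photosystem II, had 2306 and 2120 against 1135 and 1012 (-1.04 ± 0.16, adjusted p = 0.0493). All 9 ndh genes and all 4 rpo genes, of the plastid RNA polymerase, were below 0, with medians of -0.72 and -0.61. The 20 psa and psb genes of the photosystems had a median of -0.43, and the 14 ribosomal protein genes had -0.42. ATP synthase genes, 6 in number, had -0.31.

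Single values within the plastid genome varied. psbD, the D2 reaction centre protein, had 2650 and 7026 in wild type, against 1723 and 1659 in GR-REV (-1.35 ± 0.45, adjusted p = 0.222). rbcL, the large subunit of Rubisco, had 2206 and 4913 against 1960 and 1538 (-0.92 ± 0.39, adjusted p = 0.325). In both genes the wild type dexamethasone array was the highest of the 4. ccsA, needed to attach haem to c-type cytochromes, had the opposite direction, with 4159 and 6469 against 14964 and 13599 (1.46 ± 0.26, adjusted p = 0.0667).

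Nuclear photosynthesis genes showed a smaller shift of the same sign, with 21 of 25 below 0, against 52.9% of all probe sets tested, and a median of -0.32. LHCB4.3 was the only one called, where 0.492% of all probe sets tested were called lower. Its relatives LHCB4.1 and LHCB4.2 were at -0.22 and 0.72. PSAN, a lumenal subunit of photosystem I, had 12605 and 15394 in wild type, against 8730 and 8444 in GR-REV (-0.70 ± 0.21, adjusted p = 0.188). PRK, phosphoribulokinase of the Calvin cycle, had 12550 and 17072 against 9315 and 9284 (-0.65 ± 0.23, adjusted p = 0.253). RCA, the activase of Rubisco, was at -0.40. The nuclear median lay between -0.38 and -0.19 under the alternatives.

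In whole seedlings, fewer cells of a type and less RNA per cell cannot be told apart. The shoot marker list, of which 4 of 24 loci were matched and tested, had a median of -0.50, and 3 of the 4 are also among the nuclear photosynthesis genes. Its summed signal was 62609 and 82664 in wild type, against 54287 and 53071 in GR-REV. The root list had 3 tested members of 24 loci, with differences of -0.09, 0.17 and 0.42 for AT5G17820, AT2G25980 and PYK10. Over its 6 matched probe sets the summed signal, mostly that of PYK10, was 14643 and 10539 in wild type, against 16973 and 16146 in GR-REV. None of these markers was called. The part that organ proportions had in the photosynthesis values was not tested. Chlorophyll synthesis genes, 8 in number, had a median of -0.04.

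**Figure D3:**
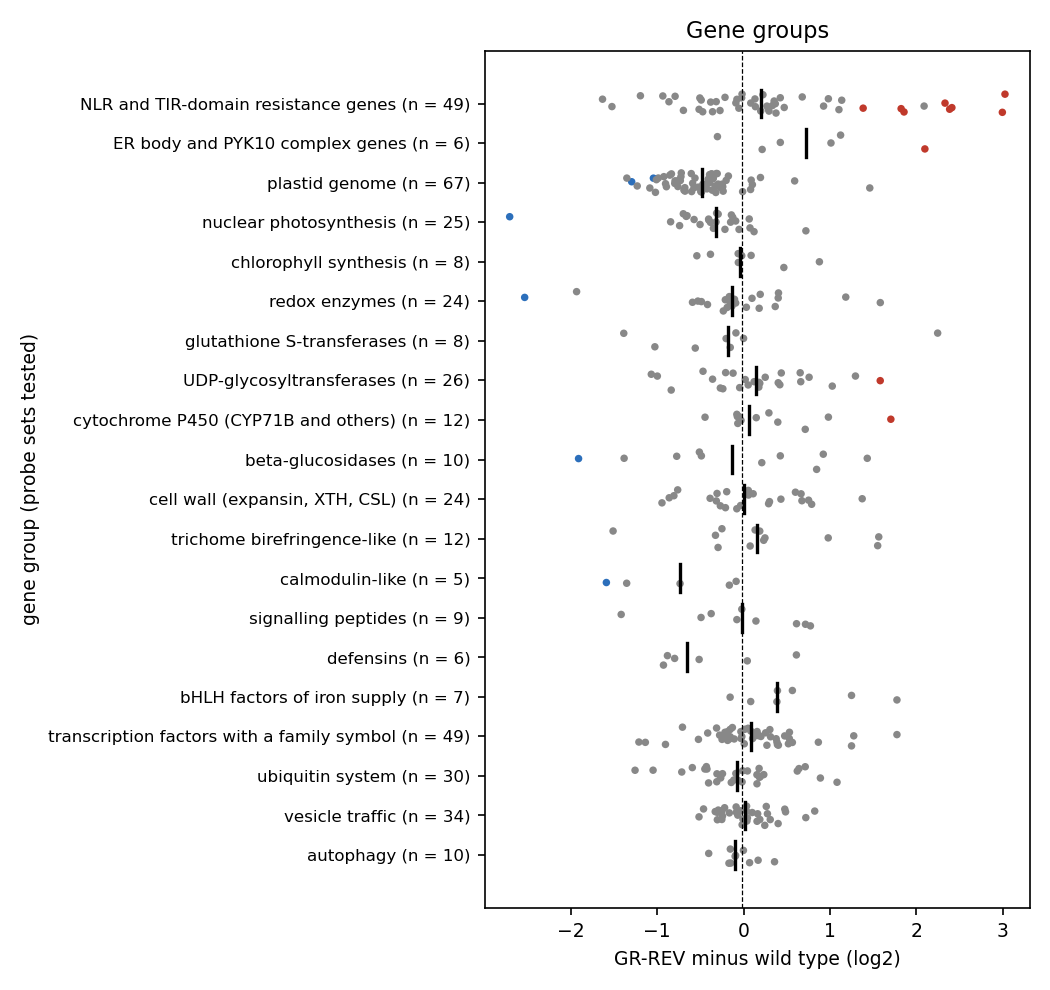
Log2 difference of GR-REV minus wild type (horizontal) for the probe sets of 20 gene groups, 1 point each, with called members in red or blue, a black bar at each group's median and a dashed line at the median of all probe sets, -0.02. The plastid genome lies mostly left of the dashed line, and 8 NLR genes stand at the right.

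The ER body is a compartment of the endoplasmic reticulum in seedlings and roots of the mustard family that stores the beta-glucosidase PYK10. Among the 6 tested genes of the ER body and PYK10 list 1 was called, where 1.28% of all probe sets tested were called higher. NAI2, the protein that shapes ER bodies, was called higher, with signals of 797 and 778 in wild type, against 3377 and 3359 in GR-REV (2.1 ± 0.15, adjusted p = 0.00807). The signals within a genotype differed little. JAL34 and JAL33, jacalin-type lectins that associate with PYK10, were at 1.12 (adjusted p = 0.0589) and 1.01 (adjusted p = 0.0731). PYK10 itself had 14190 and 10171 against 16494 and 15758 (0.42 ± 0.25), and NAI1, the transcription factor that controls these genes, was at -0.30. The list was made after the files had been seen. JAL33 and JAL34 lie in a stretch of chromosome 3 given below.

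AT1G47400, a small iron-deficiency peptide that promotes iron uptake, was the only member called among the 4 tested genes of iron deficiency, where 1.28% of all probe sets were called higher. Its signals were 374 and 235 in wild type, against 2074 and 2007 in GR-REV (2.78 ± 0.26, adjusted p = 0.0152). PYE, a bHLH regulator of iron supply, had 184 and 123 against 547 and 486, just short of the threshold (1.77 ± 0.28, adjusted p = 0.051). BHLH101 was under the floor in wild type, at 2.99 and 11, and had 92.6 and 197 in GR-REV. None of the 7 bHLH factors of iron supply was called, and their median was 0.39.

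Of the 43 gene lists in all, 37 had a tested member and 25 of those had no call in limma, over 258 probe sets, of which 53 had an unadjusted p under 0.05, a threshold passed by 16.4% of all probe sets tested. Among large groups, 49 transcription factors with a family symbol had a median of 0.08, 34 vesicle traffic genes had 0.01, 30 ubiquitin system genes had -0.08 and 24 cell wall genes had 0.01, all without a call. With 1.28% of all probe sets called higher and 0.492% lower, 1 call in a list this small says little about the list. Single calls were UGT88A1 (1.58 ± 0.21), the 1 of 26 genes with a UGT symbol, and CYP71B26 (1.70 ± 0.21), the 1 of 12 cytochromes P450. UGT88A1 also lies in the stretch of chromosome 3 given below. It had signals of 2039 and 1813 in wild type, against 6749 and 4899 in GR-REV. CYP71B26 had 573 and 436 against 1732 and 1529. Of 5 calmodulin-like genes, CML38 was called lower, and CML41 had 449 and 513 against 217 and 163 without passing (-1.35, adjusted p = 0.0734). Of 10 beta-glucosidases, BGLU15 was called lower and BGLU25 had a difference of 1.43 that did not pass.

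The HD-ZIP III and reported REV target list had 22 loci, of which 3 were matched, and none was called. PHV, an HD-ZIP III gene itself, had signals of 342 and 276 in wild type, against 314 and 384 in GR-REV (0.17 ± 0.25, adjusted p = 0.795). HAT2, an HD-ZIP II gene, was at 0.53 ± 0.46 and WRKY53, a regulator of leaf senescence, at 0.47 ± 0.45. By the titles, the values of HAT2 and WRKY53 were of opposite sign in the mock and dexamethasone pairs. They were -0.15 and 1.21 for HAT2 and -0.44 and 1.39 for WRKY53. By the source names, HAT2 had 1074 in GR-REV against 450 in the mock pair and 405 against 463 in the dexamethasone pair. WRKY53 then had 713 against 632 and 466 against 272, higher in GR-REV in both pairs. Without the array titled GR-REV dexamethasone the HAT2 difference was -0.17, and without the wild type dexamethasone array that of WRKY53 was -0.13.

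Of 26 loci reported to differ between Arabidopsis accessions, 5 were matched. QQS, AT2G25450 and AT2G14080 were called higher and AOP3 lower, where 1.28% of all probe sets tested were called higher and 0.492% lower. AT2G25450 and AOP3 are also among the glucosinolate genes given above. AT1G52000, a jacalin-type lectin, had 2740 and 840 in wild type, against 503 and 125 in GR-REV, with a difference of -2.60 ± 0.80 that did not pass (adjusted p = 0.202). Within each genotype its dexamethasone array was the lower by the titles. By the source names the order in GR-REV was the reverse. The list was chosen with results of these data known, so its directions are not independent evidence.

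The treatment pairs share no array, and each gives the genotype difference once, without a test. Past 2-fold in the mock pair were 536 probe sets higher in GR-REV (2.36%) and 672 lower (2.95%). In the dexamethasone pair they were 724 higher (3.18%) and 471 lower (2.07%). In both pairs 336 were higher (1.48% of 22746 probe sets) and 218 lower (0.958%). The 336 were 62.7% of those higher in the mock pair and 46.4% of those higher in the dexamethasone pair. The 218 were 32.4% and 46.3% of those lower. When pairs followed the source names instead, 288 were higher and 178 lower in both.

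All 249 called probe sets had the same sign in both pairs, which the test favours, and 246 were at least 2-fold in both. Opposite differences of at least 2-fold occurred in 12 probe sets, 5 higher in the mock pair and 7 higher in the dexamethasone pair. Across 12252 probe sets the differences of the pairs had a Pearson r of 0.581, given as a description, since probe sets on the same arrays are not independent replicates.

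**Figure D4:**
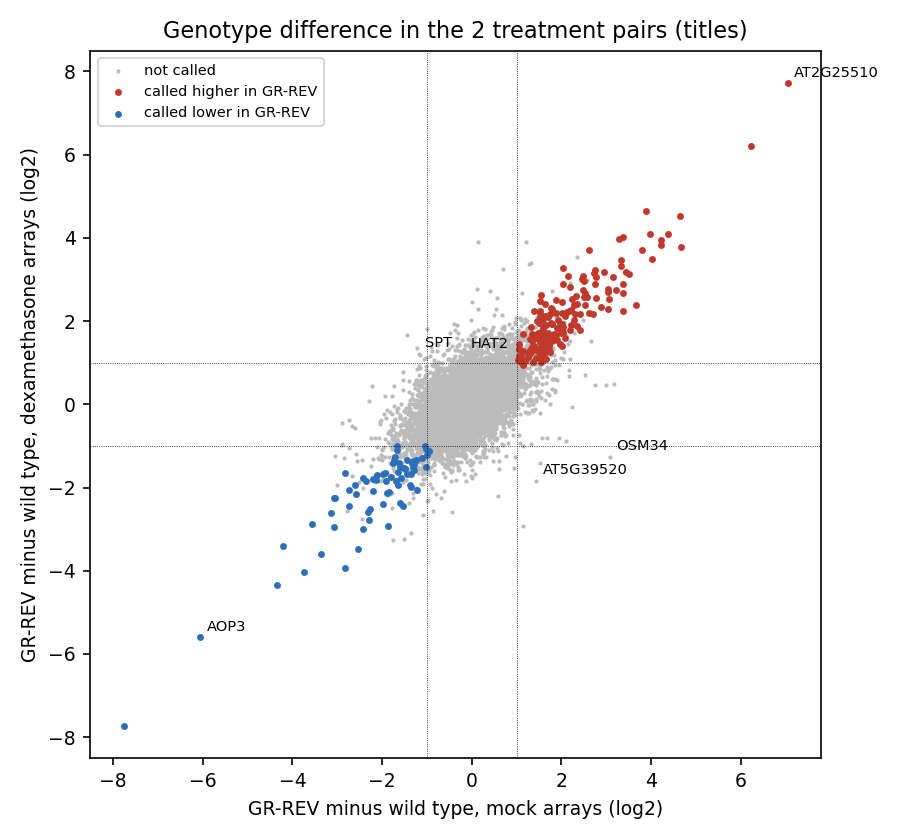
Log2 difference of GR-REV minus wild type in the dexamethasone arrays (vertical) against that in the mock arrays (horizontal), 1 point per probe set, with treatments by the titles and dotted lines at 2-fold. Called probe sets lie along the rising diagonal, while OSM34, SPT and AT5G39520 lie in the opposite quadrants.

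The calls were spread over all 5 chromosomes. On chromosome 1, 24 genes were called higher and 13 lower of 1969 tested, on chromosome 2, 9 and 10 of 1080, on chromosome 4, 12 and 8 of 1095, and on chromosome 5, 20 and 6 of 1803. Chromosome 3 had 33 higher and 3 lower of 1532. A stretch of chromosome 3 from AT3G16330 to AT3G19590 held 19 of those 33 among 105 probe sets tested, with a median of 0.98. Outside it chromosome 3 had 14 higher and 3 lower of 1427, or 0.981% higher. Genes outside the stretch on all chromosomes numbered 79 higher and 40 lower of 7374. The borders were set with these results known.

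In windows of 30 consecutive measured genes, the median difference stayed between -0.31 and 0.28 on the other chromosomes and reached 1.06 in the stretch. Called genes sometimes lay side by side elsewhere. Of 138 called genes in locus order, 20 (14.5%) had a called gene as their nearest measured neighbour, in 10 pairs, of which 4 lay in the stretch. Of all 7408 genes in that order 1.86% were called, and the share of such pairs expected by position alone was not worked out. Outside the stretch 12 of 119 had one.

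Of the 10 pairs, 8 had calls of like direction, among them AT2G25450 with AT2G25510 and AT5G45500 with AT5G45510. The AIG2-like genes AT3G28940 and AT3G28950 were higher by 1.76 and 1.81. Of the aldo-keto reductase genes, ATB2 was higher by 1.26 and AT1G60730, at the floor in wild type, by at least 1.71. In 2 pairs the directions were opposite. AT5G44580 was higher by 3.16 while AT5G44570, at the floor in GR-REV, fell by at least 3.37, both on the log2 scale. AT1G65370, a TRAF-like gene at the floor in wild type, was higher by at least 2.24, and AT1G65490 fell by 1.65. Overlapping or similar transcripts near such pairs were not examined here.

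**Figure D5:**
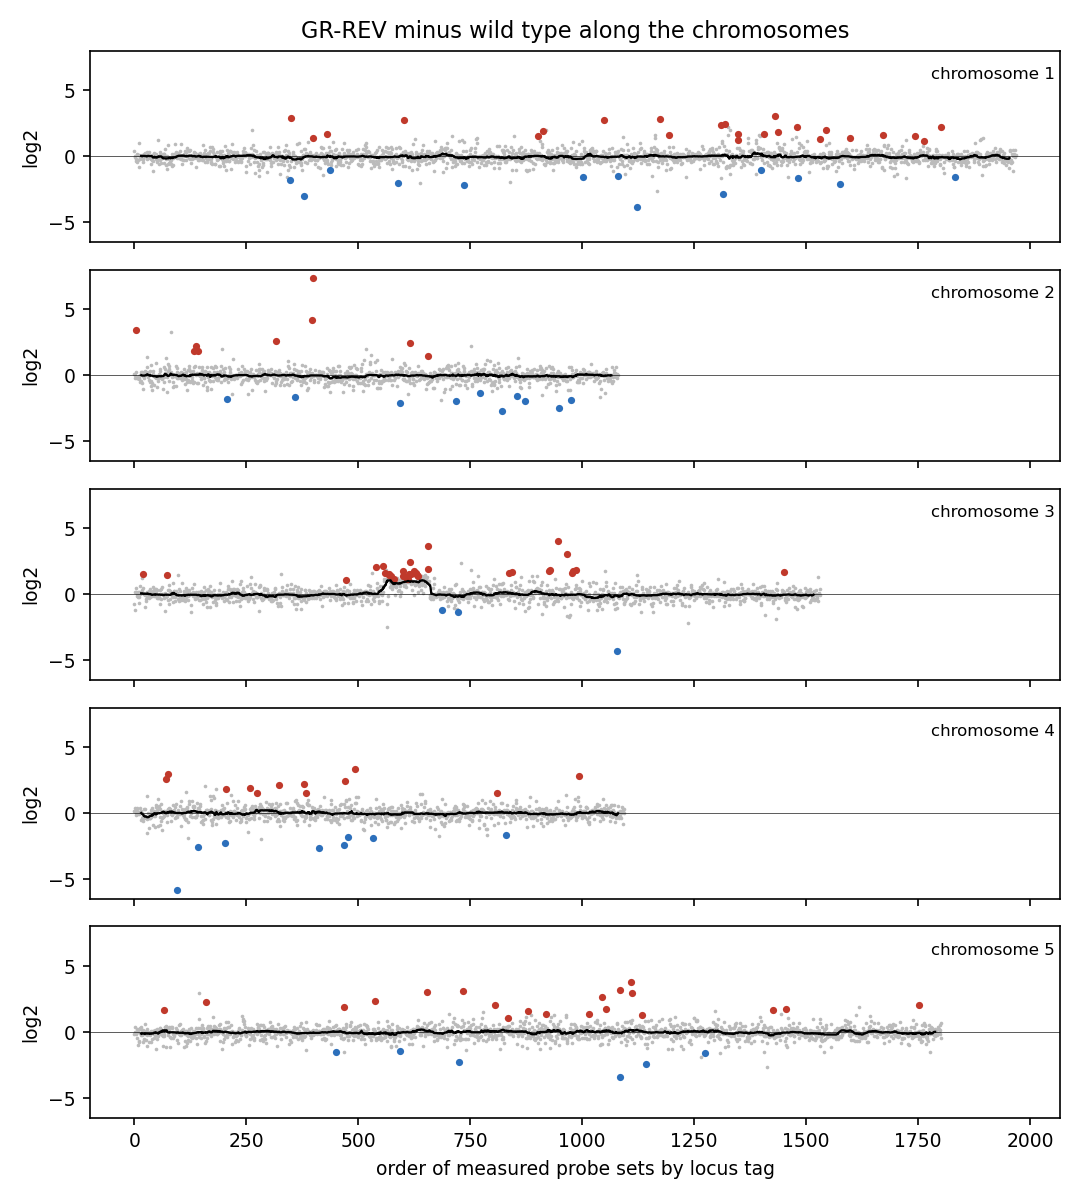
Log2 difference of GR-REV minus wild type (vertical) for probe sets with 1 gene in the order of their locus tags (horizontal), 1 panel per chromosome, with calls in red and blue and a black running median over 30 probe sets. The running median leaves 0 for a length on chromosome 3 only, and single calls lie along all 5 chromosomes.

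Calls occurred at every signal level, in 1.08%, 2.31%, 1.51% and 2.19% of 4 equal bins of probe sets from the lowest to the highest mean signal. Of 75 genes with several tested probe sets, 1 had a call, and its probe sets disagreed. In AT3G61010 one probe set gave a GR-REV level at least 3.16-fold above wild type and the other differed by 0.19 on the log2 scale.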

How the data were processed

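RNA from 4 flasks was measured on 1 array each. The deposited values are intensities on a linear scale, 1 signal per probe set, made by the authors with MAS5 per the submitters' processing notes. Their 2% trimmed mean was 500.05 to 500.06 on each array, and no scaling was added. Of 22810 probe sets, 64 controls were left out. Signals were set to a floor of 91.4, and log2 values were compared in limma 3.58.1 (R 4.3.3, lmFit, eBayes with trend, 2 residual degrees of freedom, Benjamini-Hochberg adjustment) where a probe set exceeded the floor on 2 or more arrays. Median signals were between 156 and 181, and the number of arrays limits the precision. Each genotype had 1 flask per treatment, so p-values measure only the spread between those flasks, moderated across probe sets. Where a genotype was at the floor on both arrays, the floor removed its spread, which does not enter.

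Genes came from the platform's annotation table, with names and locus order from RefSeq's gene table (assembly TAIR10.1). One gene was listed for 13513 probe sets, several for 503 and none for 8730. Sequences were not used here. Named genes are the 15 highest and 15 lowest calls above the floor on all arrays, the 6 largest bounds each way, up to 4 calls per list and direction, and all members of the accession and REV target lists. Other genes were named after their values were seen. The comparison, rule and lists were chosen with earlier results of these data known, and the NLR and ER body lists after the files had been read. Alternatives were other floors, added pseudocounts, scaling, filters, trend, treatment terms and leaving out each array. Each of the 4 arrays used a different module of 1 fluidics station, so modules cannot be told apart from groups.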

Additional observations from a re-analysis of the deposited data

Results flagged for a closer look

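In 6 genes the genotype difference was at least 2-fold in opposite directions in the treatment pairs of the titles. There was 1 array per genotype and treatment, so the difference between the pairs was not tested. The source names give the GR-REV arrays the opposite treatments, and none of the 6 kept this pattern when pairs followed them. OSM34, an osmotin-like defence protein, was 3.08 higher in GR-REV on the log2 scale in the mock pair and -1.26 in the dexamethasone pair. Its wild type signals were 180 and 722 and its GR-REV signals 1522 and 302. AT5G39520 had 1.44 and -1.83. The other 4 had the reverse order. SPT, a bHLH factor of carpel and leaf growth, had -1.19 and 1.22. AT5G50450 had -1 and 1.81, AT4G22410 had -1.07 and 1.08, and AT3G06070 had -1.02 and 1.1. By the source names OSM34 was higher in GR-REV in both pairs, with 302 against 180 and 1522 against 722.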

How the results depend on the processing

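No call of the 249 changed sign under any alternative, although fewer passed in some. The filter, the trend and the treatment terms leave each difference as it was, so no sign could change under those. Calls higher and lower were 282 and 136 with the floor value added in place of a floor, 302 and 125 with division by the median, and 15 and 15 with no filter. They were 568 and 429 with the treatment of the titles as a term, and 288 and 165 with that of the source names. Of the 249, 247, 243, 10, 249 and 248 remained called in these 5. Leaving out 1 array gave 61 to 198 higher calls and 17 to 170 lower calls, and without a wild type or a GR-REV array 233 or 207 of the 249 could still be tested. Calls higher made up 72.3% of all calls, 57.0% with the titles as a term and 53.8% without GR-REV replicate 1, 50.0% with no filter and 85.1% without wild type replicate 1.

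With the floor at the 60th percentile 197 probe sets passed 2-fold upwards and 109 downwards in both pairs. With the 25th percentile 363 were lower, and with the floor value added 134. NLR genes called higher were 2 with the floor at the 60th percentile, 2 among those above the floor on all arrays, 0 with no filter (2140 probe sets had an unadjusted p under 0.05 there) and 1 to 4 leaving out 1 array. Leaving out 1 array, HAT2 ranged from -0.17 (without GR-REV replicate 2) to 1.23 and WRKY53 from -0.13 (without wild type replicate 2) to 1.08. Of 28 list medians, 15 had the other sign in at least 1 alternative and 4 others reached 0. The other 9 had 1 sign in the alternatives run, 7 of them in all 14, the plastid and nuclear photosynthesis lists among these. Of 50 named called probe sets, 3 remained called with no filter, 35 with the floor at the 60th percentile, and 22 of 44 tested without wild type replicate 2. The cause of these changes was not tested.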
